A study of Mus musculus with 4 samples.

Results

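The retinoic acid synthesis and retinol reduction enzymes described here are 10 genes, chosen by symbol from the 43998 entries of the deposited table of mouse spermatogonial RNA, and all 10 had an entry of their own. They are Lrat, Rdh10, Adh1, Adh5, Aldh1a1, Aldh1a2, Aldh1a3, Dhrs3, Dhrs4 and Rdh11. The study sequenced RNA of THY1-positive spermatogonia of C57BL/6 mice at postnatal day 4, with 2 libraries from animals whose germ cells carry a retinoic acid signalling defect (mutant) and 2 libraries from control animals. The cells were taken from testis with magnetic beads against CD90.2, an allelic form of THY1, a surface protein by which undifferentiated spermatogonia can be enriched. The labels name neither the altered gene nor the promoter that restricts the defect to germ cells, and whether separate animals or pools stand behind these libraries is not stated in them. Each genotype has 1 deposited value per gene, made from both of its libraries, in RPKM (reads scaled to the length of the transcript and to the depth of the library). No spread between libraries can therefore be set beside any difference, and none of the differences has a test.

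Retinoic acid is made from vitamin A in a pair of oxidations: retinol is turned into retinal by retinol and alcohol dehydrogenases, and retinal into retinoic acid by the ALDH1A enzymes. The first step runs backwards when retinal reductases return retinal to retinol, and lecithin retinol acyltransferase takes retinol away as storage esters. In the testis, retinoic acid starts the differentiation of spermatogonia, and in young mice the Sertoli cells are known as a main source of it. An enzyme transcript in these libraries can thus come from the germ cells, whose signalling was altered, or from somatic cells that were carried along.

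Of the 10 enzymes, 9 reached an RPKM of 1 in at least 1 genotype, and Lrat stayed below it in both. Among the 9, Adh1, Dhrs3 and Aldh1a1 were lower in the mutant by 2-fold or more, and no enzyme was higher by that much, counted on the log2((mutant RPKM + 1) / (control RPKM + 1)) scale, which understates the differences of genes with low values. Across all 16473 genes that passed the same filter, 716 (4.35%) were at least 2-fold lower and 724 (4.4%) at least 2-fold higher. Of the 9 enzymes, 8 had a mutant value below control, as did 49.6% of all genes, although Adh5, Aldh1a2, Dhrs4 and Rdh11 turned above 0 when the mutant column was rescaled to the Sertoli cell markers, and Aldh1a2 also when a trend with transcript length and GC content was removed. Rdh10 was the enzyme with a higher mutant value, which turned below 0 after rescaling to germ cell genes. The median log2 difference of the 9 was -0.68, against 0.00 for all genes. These values describe 1 combined value per genotype, and nothing is called particular to the enzymes from them.

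**Figure D1:**
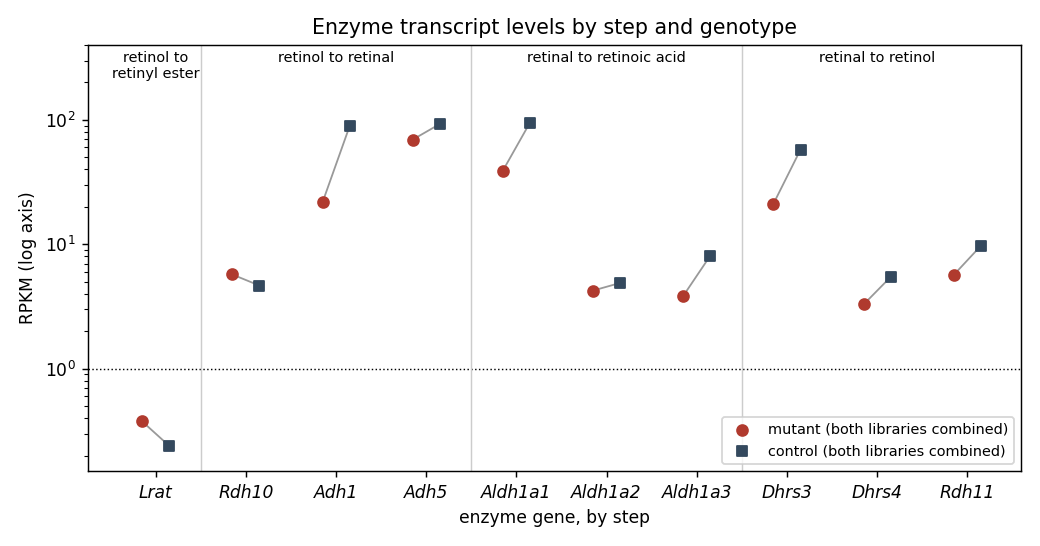
RPKM of the 10 enzymes on a log axis, grouped by the step they catalyse, with the combined mutant value (red circle) left of the combined control value (dark square) and a line joining them. The dotted line marks an RPKM of 1; Adh1, Aldh1a1 and Dhrs3 show the steepest lines, and Rdh10 and Lrat are the enzymes with the higher mutant value, Rdh10 only as long as the columns are not rescaled to germ cell genes.

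Levels per transcript length formed an upper and a lower group. The upper group was Adh5, Aldh1a1, Adh1 and Dhrs3, which lay between 21.2 and 69.4 RPKM in the mutant and between 57.6 and 94.9 RPKM in control. The other 5 enzymes above the filter lay between 3.29 and 5.72 RPKM in the mutant and between 4.66 and 9.73 RPKM in control. In the mutant, Adh5 had the highest level of the 10 and Rdh10 ranked 5, while in control Aldh1a1 had the highest level and Rdh10 ranked 9. Neighbours such as Adh1 and Dhrs3 in the mutant, or Aldh1a1 and Adh5 in control, cannot be placed in order without a spread between libraries. The ranks of Rdh10 rest on such neighbours too, with Rdh11 at 5.68 RPKM in the mutant and Aldh1a2 at 4.89 RPKM in control. The deposited values stepped in whole reads, which placed the depth behind them near 57.3 M reads in the mutant and 56.0 M reads in control, if no further scaling factor entered. Intervals given below are exact 95% intervals that cover counting error only, and they are given for Aldh1a2, Rdh10 and Adh5, each with 1 protein-coding transcript in GENCODE M21 and an entry that spans the same bases as the GENCODE gene.

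The promoters of the 3 enzymes past 2-fold are shown together with that of Adh5, a relative of Adh1 in the same gene cluster that did not reach 2-fold. Each window runs 5′ to 3′ on the plus strand from 250 bases before to 50 after the RefSeq start site in GRCm38.p6, and the capitals mark a CCAAT box, the GC box GGGCGG, the E-box CACGTG or a receptor hexamer on either strand. The hexamers searched, which retinoic acid receptors are known to bind, were AGGTCA with its close relatives AGTTCA and, with G at the first base, GGGTCA as well as GGTTCA. The windows lie at chr3:138277335-138277634 for Adh1, chr4:144892577-144892876 for Dhrs3, chr19:20601718-20602017 for Aldh1a1 and chr3:138442843-138443142 for Adh5. For Adh1 the start site lies 16594 bases inside the deposited entry, so the window may not be the promoter of all transcripts counted there. For Dhrs3, Aldh1a1 and Adh5 it lies within 7 bases of the entry's 5′ end. Where a gene had several windows, the one nearest to that end was taken. The GENCODE gene of Aldh1a1 starts at 20492715, upstream of the entry's start at 20601961, so its window may not be the promoter of all transcripts either.
Adh1: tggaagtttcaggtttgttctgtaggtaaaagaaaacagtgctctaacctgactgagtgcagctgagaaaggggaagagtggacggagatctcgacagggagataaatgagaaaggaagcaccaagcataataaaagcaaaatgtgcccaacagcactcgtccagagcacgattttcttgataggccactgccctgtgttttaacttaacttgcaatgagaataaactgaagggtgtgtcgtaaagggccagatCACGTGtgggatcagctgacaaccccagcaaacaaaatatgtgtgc
Dhrs3: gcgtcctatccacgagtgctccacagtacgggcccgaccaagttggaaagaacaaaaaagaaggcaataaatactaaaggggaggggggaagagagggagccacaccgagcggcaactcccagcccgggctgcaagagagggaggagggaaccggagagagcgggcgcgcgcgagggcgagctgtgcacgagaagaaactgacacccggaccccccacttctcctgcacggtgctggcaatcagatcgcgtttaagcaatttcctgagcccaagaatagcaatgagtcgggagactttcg
Aldh1a1: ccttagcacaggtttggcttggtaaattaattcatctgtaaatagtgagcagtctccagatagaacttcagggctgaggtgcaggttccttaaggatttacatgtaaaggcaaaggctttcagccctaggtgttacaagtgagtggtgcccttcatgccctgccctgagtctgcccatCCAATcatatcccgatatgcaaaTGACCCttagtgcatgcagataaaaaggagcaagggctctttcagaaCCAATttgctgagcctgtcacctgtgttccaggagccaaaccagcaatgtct
Adh5: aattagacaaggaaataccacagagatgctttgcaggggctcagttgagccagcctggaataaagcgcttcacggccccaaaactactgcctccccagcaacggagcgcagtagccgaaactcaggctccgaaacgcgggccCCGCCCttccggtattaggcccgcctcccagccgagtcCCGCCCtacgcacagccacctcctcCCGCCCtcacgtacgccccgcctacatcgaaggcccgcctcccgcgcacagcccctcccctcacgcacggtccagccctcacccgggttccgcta
The windows differ in GC content and in the motifs they hold, and the 3 lower enzymes share a direction because they were chosen by it. The Dhrs3 window is 58.7% GC and has 21 CpG dinucleotides, and none of the motifs searched is in it. The Aldh1a1 window is 47.0% GC with 1 CpG, carries CCAAT on the plus strand at positions -72 and -2 from the start site, and has the hexamer GGGTCA on the minus strand at -49. The Adh1 window is 45.3% GC with 6 CpG and holds CACGTG at position 5. The Adh5 window is 65.0% GC with 26 CpG and holds GGGCGG on the minus strand at 3 places. Of 32851 RefSeq windows of the same length, 43.7% hold at least 1 of the 4 hexamers, 37.4% CCAAT, 35.7% GGGCGG and 7.15% CACGTG. The TATA box TATAAA was also searched and is in none of the 8 enzyme windows read, 1 per gene, against 13.6% of all windows. A match is a description of letters, and a missing match says only that these letters are not in this window.

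Of the enzymes that turn retinol into retinal, Adh1 differed most. Adh1, a cytosolic class I alcohol dehydrogenase that also clears excess retinol, was at 21.7 RPKM in the mutant and 88.7 RPKM in control (chromosome 3, 138260991 to 138307022), a 4.08-fold lower mutant value and a log2 difference of -1.98. That is the lowest of the 10 enzymes, and 136 of the 16473 genes lay lower. The entry ends beyond the GENCODE gene, which runs to 138290698, so the transcript length behind the value is uncertain and no read count is given. It overlaps the antisense gene Gm16559, which has its own entry at 0.398 RPKM in the mutant and 0.922 RPKM in control, and no source used here says if counting took strand into account.

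Adh5 and Rdh10 stood nearer to control. Adh5, the class III enzyme best known for handling formaldehyde bound to glutathione and weak on retinol, was at 69.4 RPKM in the mutant and 92.6 RPKM in control, 1.33-fold lower in the mutant (counting interval 1.29 to 1.38). Its log2 difference of -0.41 turned to 0.54 after rescaling to Sertoli cell markers. Rdh10, a membrane-bound dehydrogenase that limits retinal production in the mouse embryo, was at 5.72 RPKM in the mutant and 4.66 RPKM in control, a 1.23-fold higher mutant value (counting interval 1.12 to 1.34). Its log2 difference of 0.25 became -0.26 when the germ cell identity list was brought to a median of 0. Within a genotype, Adh1 made up 22.4% of the summed RPKM of these 3 genes in the mutant and 47.7% in control, Adh5 71.7% in the mutant and 49.8% in control, and Rdh10 5.91% in the mutant and 2.51% in control. The ratio of Adh1 to Adh5, which no scaling of a whole column can alter, was 0.313 in the mutant and 0.958 in control.

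Adh1 and Adh5 lie in a cluster of 7 Adh entries on chromosome 3. Adh7, Adh6a, Adh4, the Adh6-ps1 pseudogene and an entry that pools Adh6b with another symbol lay between 0.00554 and 0.443 RPKM in the mutant and between 0 and 0.529 RPKM in control. Adh1 and Adh5 were thus the members of the cluster above an RPKM of 1. Of the 1443 distinct 50-base words in the Adh1 transcript, 4 (0.277%) occur in another gene, most in Adh6-ps1, so few reads of that length could be shared.

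**Figure D2:**
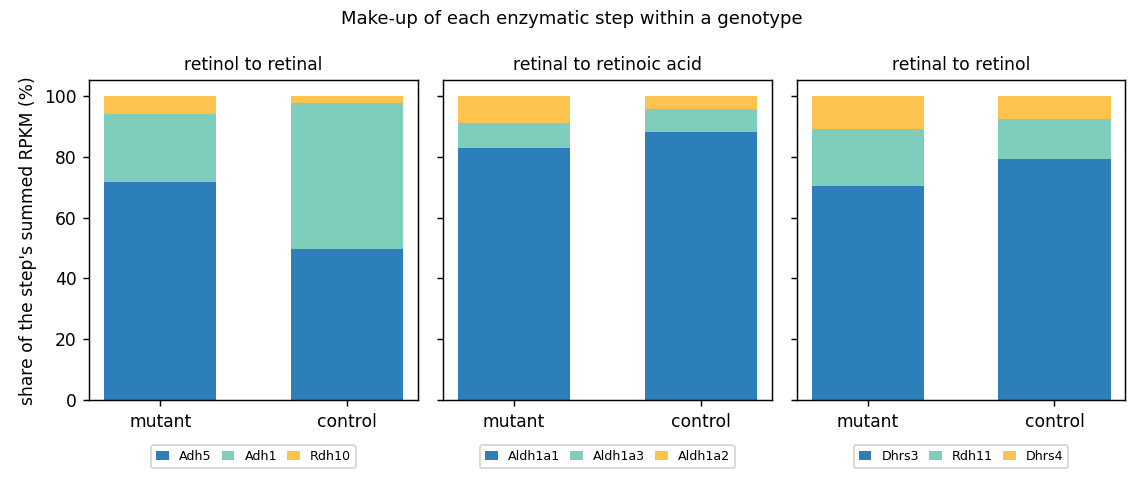
Share of each enzyme in the summed RPKM of its step, in percent, with the mutant bar left of the control bar, each bar adding up to the whole of 1 combined value. Adh1 takes 22.4% of the retinol to retinal bar in the mutant and 47.7% in control, while Aldh1a1 takes 82.8% of the retinal to retinoic acid bar in the mutant and 88.0% in control.

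The 3 enzymes that make retinoic acid from retinal were lower in the mutant by unequal amounts. Aldh1a1, known in the testis mainly from Sertoli and Leydig cells, was at 39.1 RPKM in the mutant and 94.9 RPKM in control (chromosome 19, 20601961 to 20643462), 2.43-fold lower with a log2 difference of -1.26. Its transcript shares 151 of 2309 50-base words with other genes, most with its neighbour Aldh1a7, which was itself at 0.355 RPKM in the mutant and 0.855 RPKM in control. The ratio of Aldh1a1 to Aldh1a7 was 110 in the mutant and 111 in control, and reads shared between these copies may stand in either value.

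Aldh1a3 was at 3.85 RPKM in the mutant and 8.10 RPKM in control, 2.10-fold lower in RPKM but just inside 2-fold on the log2(RPKM + 1) scale at -0.91, and past it at -1.05 with a pseudocount of 0.1. Aldh1a2, known in the testis from spermatocytes that appear later in development, was at 4.25 RPKM in the mutant and 4.89 RPKM in control, a log2 difference of -0.17. Its counts of about 500 mutant and 565 control reads gave a fold of 1.15 with an interval of 1.02 to 1.30, and the difference turned to 0.66 after rescaling to Sertoli cell markers and to 0.01 without the length and GC trend. Together the 3 genes summed to 47.2 RPKM in the mutant and 108 RPKM in control, a ratio of 0.437. Aldh1a1 held 82.8% of that sum in the mutant and 88.0% in control, Aldh1a3 8.16% in the mutant and 7.51% in control, and Aldh1a2 the rest. Aldh1a1 was 9.21 times Aldh1a2 in the mutant and 19.4 times Aldh1a2 in control.

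Among the enzymes that return retinal to retinol, Dhrs3 stood apart from the other two. Dhrs3, a microsomal reductase that retinoic acid itself induces and that limits its production, was at 21.2 RPKM in the mutant and 57.6 RPKM in control (chromosome 4, 144892827 to 144928209). It was 2.72-fold lower in the mutant with a log2 difference of -1.40, and 218 of all genes compared lay lower. Rdh11, a reductase of the endoplasmic reticulum, was at 5.68 RPKM in the mutant and 9.73 RPKM in control (-0.68), and Dhrs4, a peroxisomal reductase, at 3.29 RPKM in the mutant and 5.47 RPKM in control (-0.59). Both turned above 0 after rescaling to Sertoli cell markers, to 0.17 for Rdh11 and 0.20 for Dhrs4. The summed RPKM of the 3 reductases was 30.1 in the mutant and 72.8 in control, a ratio of 0.414. Dhrs3 held 70.2% of that sum in the mutant and 79.1% in control, so the ratio mostly follows Dhrs3. For the retinoic acid forming enzymes, where Aldh1a1 held most of the sum, the ratio was 0.437. The enzymes that turn retinol into retinal summed to 96.8 RPKM in the mutant and 186 RPKM in control, a ratio of 0.521. Aldh1a1 was 1.85 times Dhrs3 in the mutant and 1.65 times Dhrs3 in control. Rdh10, which works against Dhrs3 on the same substrate pair, was 0.270 of Dhrs3 in the mutant and 0.0808 of it in control, 3.34 times higher in the mutant.

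Lrat, the enzyme that esterifies retinol for storage, was low in both genotypes. It was at 0.377 RPKM in the mutant and 0.240 RPKM in control, a ratio of 1.57. The entry runs from 82876705 to 83015049 on chromosome 3, far wider than the GENCODE gene at 82892579 to 82903973, so its transcript length is uncertain and no read count is given. The entry also overlaps Rbm46os on the opposite strand, whose own entry was at 1.69 RPKM in the mutant and 0.667 RPKM in control, so reads of the pair may not be separated and the Lrat difference is uncertain.

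The differences were set beside markers of the cells such a selection can hold, because most germ cell markers had the higher value in the mutant and most markers of each somatic list, other than the endothelial one, the higher value in control. Of 27 measured germ cell identity genes, 24 had the higher value in the mutant, with a median log2 difference of 0.55, and their summed level was 2085 RPKM in the mutant and 1571 RPKM in control. Examples were Dazl at 353 RPKM in the mutant and 274 RPKM in control, Mael at 219 RPKM in the mutant and 159 RPKM in control, and Tex19.1 at 203 RPKM in the mutant and 164 RPKM in control. Thy1, which encodes the selected protein, was at 8.61 RPKM in the mutant and 7.11 RPKM in control. Germ cell genes such as Dazl fit the label of spermatogonia, but markers of other cells were present in both genotypes, and no list had a measured marker at 0.

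Of 25 measured Sertoli cell markers, 22 had the lower value in the mutant, with a median of -0.87 and a summed level of 668 RPKM in the mutant and 1182 RPKM in control. A few genes carried much of that sum. Vim gave 181 RPKM of it in the mutant and 349 RPKM in control. Dmrt1, with the higher value in the mutant, gave 124 RPKM there and 93.0 RPKM in control. Leydig cell markers were lower for 9 of 10, with a median of -1.07 and sums of 212 RPKM in the mutant and 570 RPKM in control; Nr5a1 is in both lists, and Cyp11a1 and Insl3 had no value of their own. Macrophage markers were lower for all 14, with a median of -1.33 and sums of 1795 RPKM in the mutant and 4846 RPKM in control. Interstitial fibroblast markers had a median of -0.65 over 10 genes, and their sum was 120 RPKM in the mutant and 211 RPKM in control, while the median turned to 0.23 with the Sertoli scaling. Peritubular myoid markers had a median of -0.63 over 7, with sums of 50.1 RPKM in the mutant and 103 RPKM in control, and the median turned to 0.24 with the Sertoli scaling. Endothelial markers had a median of 0.14 over 11, with sums of 45.4 RPKM in the mutant and 40.1 RPKM in control, and the median turned to -0.0081 after quantile normalization and to -0.25 with the germ cell scaling. In bulk RNA, fewer cells of a type and less RNA per cell cannot be told apart, and the part of carried-over somatic cells in the enzyme differences was not tested.

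Against these lists the enzymes took different places. Aldh1a1, Dhrs3 and Adh1 each had a lower difference than all 25 Sertoli markers and all 27 germ cell genes. These places hold on the log2(RPKM + 1) scale. As a plain ratio of mutant to control RPKM, the Sertoli marker Cldn11, at 0.404, lay below Aldh1a1, at 0.412. Of the 10 Leydig markers, none had a lower difference than Adh1, 2 had a lower one than Dhrs3 and 3 a lower one than Aldh1a1. As plain RPKM ratios, Lhcgr (0.313) also lay below Dhrs3 (0.367), and Hao2 (0.380) and Star (0.408) also lay below Aldh1a1. Of the 14 macrophage markers, none had a lower difference than Adh1, 4 had a lower one than Dhrs3 and 8 a lower one than Aldh1a1. Of the 7 peritubular myoid markers, 1 had a lower difference than Aldh1a1. Actg2 of that list, at -0.69 on this scale, had a plain RPKM ratio of 0.312, below both Dhrs3 and Aldh1a1. Cyp17a1, a steroidogenic enzyme, was at 42.7 RPKM in the mutant and 148 RPKM in control. Its log2 difference of -1.77 was the lowest of the Leydig list. Rdh10 lay above 23 of the 25 Sertoli markers and above all 10 Leydig markers, but below 23 of the 27 germ cell genes. It lay in the middle of the endothelial list, with 6 of the 11 markers below it and 5 above. Aldh1a2 and Adh5 lay between the lists, each above at least 21 Sertoli markers and below 25 germ cell genes. Aldh1a3, Rdh11 and Dhrs4 lay within the spread of the Sertoli list, with 9, 18 and 20 of its 25 markers below them.

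By the source known as background, Adh1 and Aldh1a1, of somatic cells, had a summed RPKM of 60.8 in the mutant and 184 in control, a ratio of 0.331. The 5 enzymes known from both compartments or widely (Rdh10, Rdh11, Dhrs3, Dhrs4 and Adh5) summed to 105 RPKM in the mutant and 170 RPKM in control, a ratio of 0.619. Adh5 gave 69.4 RPKM of that sum in the mutant and 92.6 RPKM in control, and Dhrs3 by itself had a ratio of 0.367. The germ cell group was Aldh1a2 alone, with a ratio of 0.868, and its known source is spermatocytes that appear later in development. Aldh1a3, with a ratio of 0.475, and Lrat were not assigned. Groups this small do not rank the sources.

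**Figure D3:**
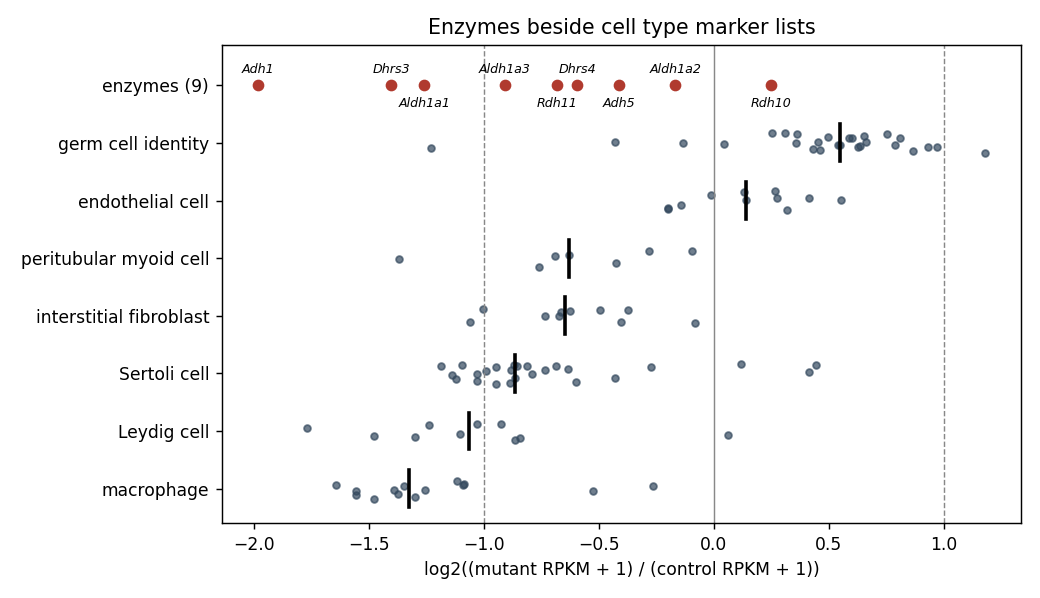
Log2 difference (mutant over control, RPKM + 1) of the 9 enzymes above the filter, in the top row, and of each measured marker in 7 cell type lists; black bars are list medians and dashed lines mark 2-fold. On this scale Adh1, Dhrs3 and Aldh1a1 lie left of every Sertoli marker, though in plain RPKM Cldn11 has a lower ratio than Aldh1a1. Rdh10 lies to the right of 0, as do most germ cell genes and 7 of the 11 endothelial markers. It leaves that side when the germ cell list is set to 0.

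The position of 0 itself depended on the scaling. Bringing the germ cell identity list to a median of 0 moved the median of all genes to -0.51, and bringing the Sertoli list to 0 moved it to 0.87. With the germ cell scaling 7 enzymes were past 2-fold lower and 0 past 2-fold higher, against 2824 genes lower and 392 higher among all. With the Sertoli scaling Adh1 alone stayed 2-fold lower at -1.05 and Rdh10 was 2-fold higher at 1.10, against 177 genes lower and 6392 higher. Adh1, Dhrs3, Aldh1a1 and Aldh1a3 had lower mutant values under each alternative run.

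**Figure D4:**
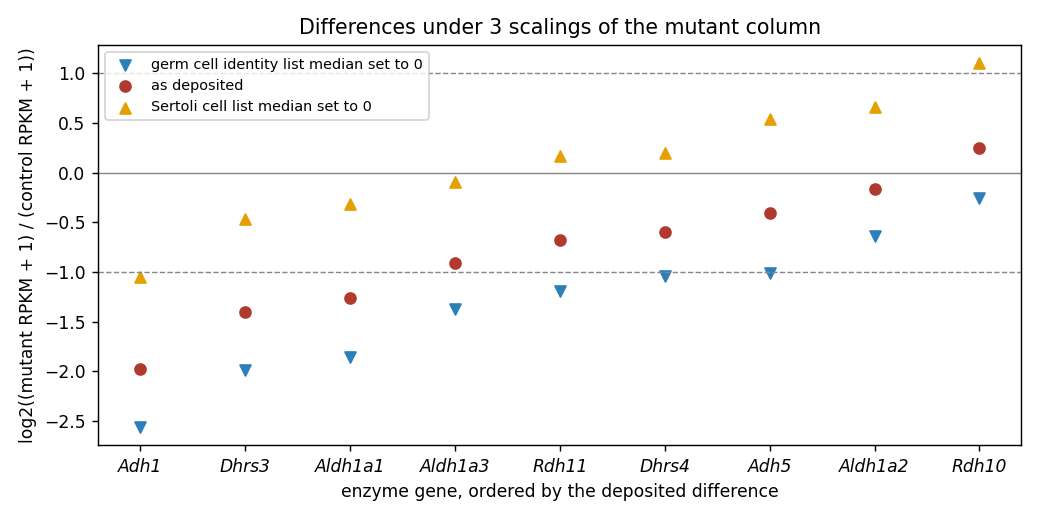
Log2 difference (mutant over control, RPKM + 1) of the 9 enzymes as deposited (circles) and with the mutant column rescaled so that the median of the germ cell identity list (triangles down) or of the Sertoli cell list (triangles up) is 0; dashed lines mark 2-fold. Rescaling multiplies the whole mutant column, so it cannot change the order of plain ratios, and the order shown is the same in these 3 scalings. The place of 0 moves through the enzymes, and 7 lie at or beyond 2-fold lower in the germ cell scaling and Adh1 alone in the Sertoli scaling.

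Other genes of the retinoid pathway were read for context. Of 7 measured uptake, transport and binding genes, 6 had lower mutant values, or 4 with the Sertoli scaling, and Fabp5, a carrier of fatty acids and retinoic acid, was 2-fold lower at 15.9 RPKM in the mutant and 49.2 RPKM in control, though inside 2-fold at -0.65 with the Sertoli scaling. Stra6, the receptor that takes up retinol from its plasma carrier, was at 2.10 RPKM in the mutant and 4.39 RPKM in control. Rbp4, the plasma carrier, was at 3.02 RPKM in the mutant and 2.65 RPKM in control, a log2 difference of 0.14 that became -0.30 with the germ cell scaling. The measured breakdown enzymes Cyp26b1 and Cyp26a1 were both past 2-fold lower, at -1.03 and -1.01, and inside it at -0.84 for Cyp26b1 and -0.79 for Cyp26a1 without the length and GC trend, and at -0.24 for Cyp26b1 and -0.66 for Cyp26a1 with the Sertoli scaling. Of 4 measured genes of provitamin cleavage and ester handling, Lpl, a lipase that releases retinyl esters from lipoproteins, was 3.54-fold lower at 17.9 RPKM in the mutant and 63.3 RPKM in control, and inside 2-fold at -0.84 with the Sertoli scaling. Dgat1, which can esterify retinol in place of LRAT, was at 27.5 RPKM in the mutant and 24.3 RPKM in control (0.17 on the log2 scale, or -0.41 with the germ cell scaling). Of 6 measured genes known to respond to retinoic acid, all had lower mutant values, or 4 of them with the Sertoli scaling, and 3 were 2-fold lower, with Stra8, the gene needed for entry into meiosis, at 8.60 RPKM in the mutant and 45.2 RPKM in control; 2 of those 3 are the Cyp26 genes, and Stra8 stayed past 2-fold lower with the Sertoli scaling, at -1.38.

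The enzymes were also read against relatives with the same symbol stems. Of 19 measured further Aldh, Rdh and Dhrs genes, 17 had lower mutant values, a number that was 13 without the length and GC trend and 5 with the Sertoli scaling. As deposited 4 were 2-fold lower and 0 were 2-fold higher, with a median log2 difference of -0.67, close to the -0.68 of the 9 enzymes. Without the length and GC trend 1 of the 4, Aldh2, stayed past 2-fold lower, while Aldh1b1 was at -0.85, Dhrs7 at -0.95 and Aldh3b1 at -0.90. With the Sertoli scaling 0 were 2-fold lower, 1 further gene was 2-fold higher, and the median reversed to 0.19. The 4 were Aldh2, the mitochondrial enzyme that clears acetaldehyde, at 70.5 RPKM in the mutant and 171 RPKM in control, Aldh1b1, its mitochondrial relative, at 7.54 RPKM in the mutant and 17.2 RPKM in control, Dhrs7 at 5.78 RPKM in the mutant and 13.5 RPKM in control, and Aldh3b1 at 4.52 RPKM in the mutant and 11.4 RPKM in control. Rdh14, a retinal reductase related to Rdh11, was at 11.3 RPKM in the mutant and 11.4 RPKM in control. Rdh12, another retinal reductase, stayed below the filter at 0.666 RPKM in the mutant and 0.541 RPKM in control.

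**Figure D5:**
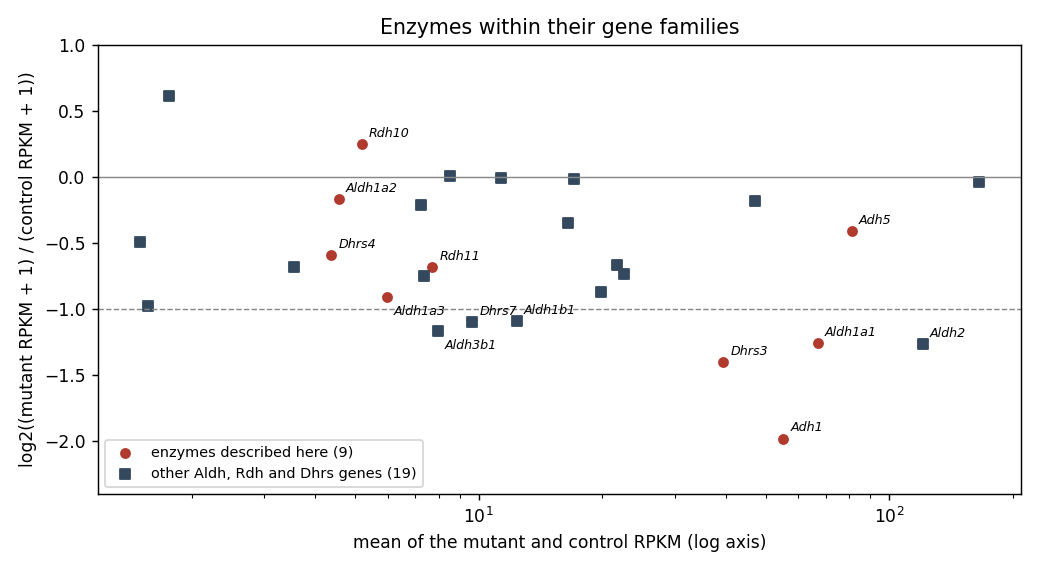
Log2 difference (mutant over control, RPKM + 1) against the mean of both RPKM values on a log axis for the 9 enzymes (red circles) and 19 further measured genes with an Aldh, Rdh or Dhrs symbol (dark squares); the dashed line marks 2-fold lower. Both sets lie mostly below 0 as deposited, with Aldh2 at a difference near that of Aldh1a1.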

How the data were processed

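RNA of 2 mutant and 2 control libraries was measured. The authors deposited RPKM, per the file headers, and each genotype has a single column that joins its libraries. The way of joining, the counting program and the gene annotation have no statement in the sources used here. TopHat2 2.0.11 and GRCm38 are named in the submitters' processing notes. A linear model (limma) held in the plan for values per library could not be used on combined values, so differences are described with no test. The enzymes, gene lists and rules were chosen with earlier results of these data known.

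From the deposited RPKM, log2((mutant + 1) / (control + 1)) was computed with Python 3.11.15, numpy 2.4.6, pandas 2.3.3 and scipy 1.17.1 for entries with 1 symbol and an RPKM reaching 1 in at least 1 genotype (16473 genes, keeping the entry with the highest mean for a repeated symbol); 774 entries that pool symbols were left out. Table starts count from 0, so 1 was added. The rule named all 10 enzymes, the 2-fold members of other retinoid and family lists and the most abundant 3 of each marker list; only some of the marker genes are printed, and 1 gene is not reported here; likeness of pattern needs more than 2 values and was not computed. Depth was read from steps of 1 read in genes with 1 GENCODE M21 transcript of at least 1000 nt: 90.8% of 1477 low mutant values and 85.4% of 1490 low control values lay within 0.1 of a whole read. Such intervals cover counting error only. The step search and the 2-fold rule were tested on simulated data. Promoters are from RefSeq (GRCm38.p6), which matched 8 of the 10 enzymes. Alternatives covered pseudocount, filter, column scaling, and length with GC content.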

Additional observations from a re-analysis of the deposited data

How the results depend on the processing

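The 3 enzymes past 2-fold lower, of 9, became 7 with the germ cell identity list set to a median of 0 and 1 with the Sertoli list set to 0, where 1 enzyme was 2-fold higher; elsewhere the lower count was 3 or 4. The enzymes' median of -0.68 was -0.77 and -0.73 with pseudocounts of 0.1 and 0.5, -0.64 without the filter, -0.80 at an RPKM of 5 or more, -0.66 after quantile normalization, -0.60 without the length and GC trend and -1.19 with the germ cell scaling, and it reversed to 0.17 with the Sertoli scaling. Single enzymes that reversed were Rdh10 with the germ cell scaling (-0.26), Aldh1a2 with the Sertoli scaling (0.66) and without the trend (0.013), and, with the Sertoli scaling, Rdh11 (0.17), Dhrs4 (0.20) and Adh5 (0.54). Among all genes, 716 lower and 724 higher became 1107 and 1417 with a pseudocount of 0.1, 2824 and 392 with the germ cell scaling, and 177 and 6392 with the Sertoli scaling. The scalings move every gene by construction; the cause of the shift without the trend was not tested. No paired analysis was possible because each genotype has 1 combined column, and for the same reason no library could be left out. Lrat stayed below an RPKM of 1 in both genotypes, and its entry length and antisense overlap leave its difference uncertain.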

Other observations

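Aldehyde dehydrogenases with no known part in retinoic acid synthesis also differed among themselves. Aldh16a1 was the most abundant gene of the family in the mutant, at 163 RPKM there and 168 RPKM in control. Its log2 difference of -0.04 was 0.07 after quantile normalization and 0.16 without the length and GC trend. With the Sertoli scaling it was 0.92, and with the germ cell scaling -0.65. Aldh18a1, which makes a precursor of proline, was at 17.0 RPKM in the mutant and 17.2 RPKM in control. Aldh3a2, which oxidises fatty aldehydes, was at 13.7 RPKM in the mutant and 26.0 RPKM in control. Aldh9a1 was at 16.6 RPKM in the mutant and 26.9 RPKM in control. With the Sertoli scaling both turned above 0 on the log2 scale, to 0.04 for Aldh3a2 and 0.25 for Aldh9a1. Aldh1l2, a mitochondrial folate enzyme, was the 1 measured Aldh gene with a higher mutant value as deposited, and it was higher under each alternative run, at 2.35 RPKM in the mutant and 1.18 RPKM in control.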
